A study of Mus musculus with 18 samples.

Results

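The response to R848 at 7 h was measured in RAW cells, a mouse line with macrophage features, on 3 arrays out of the 18 of the series. One array each came from cells given R848 alone, from cells given R848 with 1 uM API09, and from cells in media only. The labels state 0.1 mM R848, which is high for this agonist, and the unit could not be checked. API09 is described in the series design as an inactive analog of apilimod, so its array served as the second R848 array of the hour, and both are called the stimulated arrays here. The spread between arrays was taken from the R848 and R848+API09 pairs at 1, 3, 7 and 22 h and from the 2 media arrays at 0 h. Each arm and hour otherwise had 1 array, the media arm at 7 h included. A difference is the mean of the stimulated arrays minus media at the same hour, in log2 units of the intensity plus 16, and a gene is called higher or lower at an adjusted p of 0.05 in limma. The labels do not say that the arrays came from separate cultures, so the p-values reflect array-to-array spread alone, and that spread may be technical.

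R848, also named resiquimod, is a small agonist of Toll-like receptor 7, an endosomal receptor that normally senses single-stranded RNA. The receptor signals through the adaptor Myd88 and the IRAK kinases to NF-kB, to MAP kinases and to interferon regulatory factors. In macrophages this pathway is known for the induction of inflammatory cytokines, for feedback inhibitors that end the signal, for interferon-stimulated genes and for a halt in the cell cycle.

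On the arrays at 7 h the median intensity was 17.7 with R848, 17.9 with R848+API09 and 17.5 in media, within the range of 17.5 to 19.2 over all 18. Precision is limited by how few arrays there are. The 10 macrophage markers were all among the genes tested, and summed to 49419 with R848 and 48957 with R848+API09, against 52389 in media. Of these markers 5 were called higher, among them Itgam (2.42) and Fcgr1 (1.54), and 1, Csf1r, lower. Of the markers of T, B, NK, mast, dendritic, epithelial, endothelial and fibroblast cells and of neutrophils, 14 were tested and 0 were called. Of all genes tested 29.8% were called. The other markers of these cell types were not among the genes tested. The summed levels of the 14 by cell type lay between 15.6 and 106 on every array. The R848+API09 array at 22 h stood apart, with an upper quartile of 87.0 against 101 to 119 on the other arrays. Many of the counts and medians that move with it are given without it as well. The 18S ribosomal RNA probe sets averaged 8.54 with R848 and 10.14 with R848+API09 on the log2 scale, against 9.36 in media. The stimulated arrays thus lay on both sides of media in this control.

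At 7 h 3654 of 12257 genes were called (29.8%). Of these, 1391 were higher (11.3%) and 2263 were lower (18.5%) with R848, while the median over all genes was -0.04. Without the R848+API09 array at 22 h, which enters the spread, 5037 were called (1902 higher and 3135 lower), all 3654 among them. The rises were fewer but larger. Among called genes 696 (5.68%) differed by at least 1 log2 unit. Of these, 386 were higher (3.15%) and 310 lower (2.53%), and at 3 units or more there were 53 rises and 3 falls. The smallest difference called was 0.24, and the median standard error was 0.110. In all 3654 called genes both stimulated arrays lay on the called side of media, which held for 85.1% of all genes tested. The stimulated arrays themselves differed little, with a MAD-scaled spread of 0.115 log2 units between them, and 1 gene, which was not called, differed by over 1 unit.

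**Figure D1:**
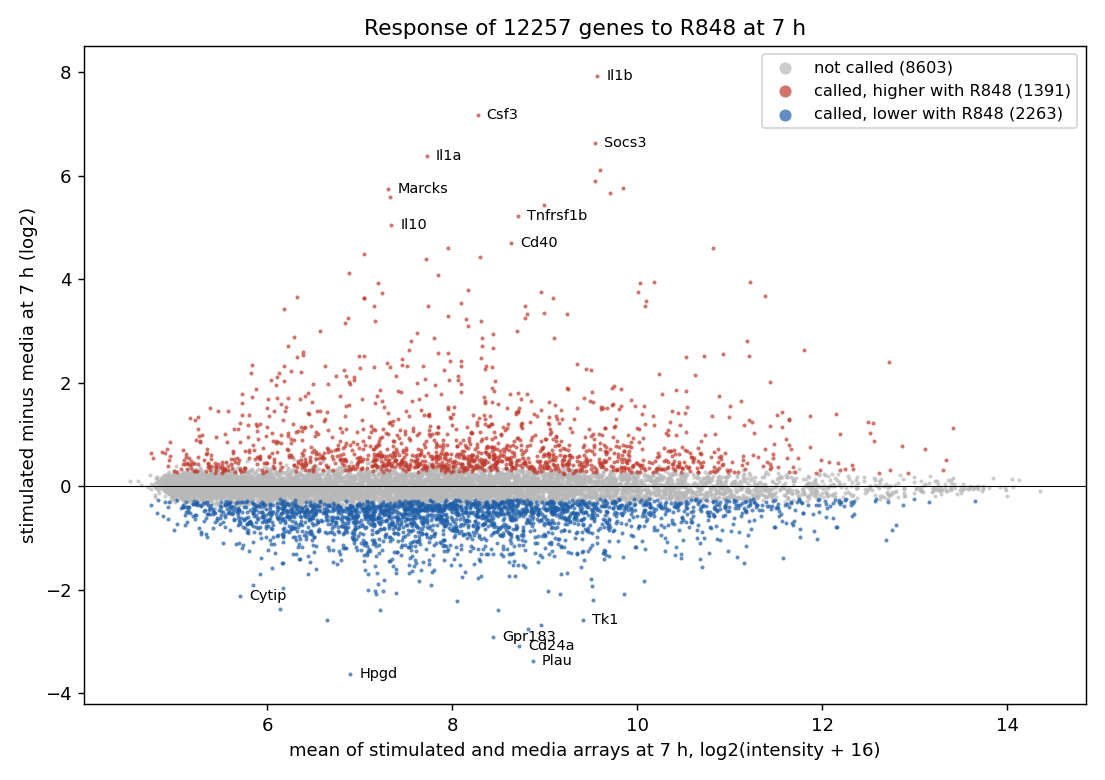
Difference at 7 h (vertical axis, log2 units, stimulated minus media) against the mean level of each gene (horizontal axis, log2 of intensity plus 16). Each point is 1 of 12257 genes, red where called higher (1391), blue where called lower (2263) and grey where not called (8603). The rises reach 7.93 (Il1b) and the falls reach -3.64 (Hpgd).

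The largest rise was in Il1b, the precursor of the fever cytokine interleukin 1 beta. Its intensity was 12028 with R848 and 11680 with R848+API09, against 32.7 in media, a difference of 7.93 (95% interval 7.56 to 8.30, adjusted p = 9.2e-11). Its relative Il1a had 1988 and 1843 on the stimulated arrays and 7.23 in media, a difference of 6.38. Both interleukin 1 genes were thus far above media on both stimulated arrays. Csf3, the granulocyte growth factor G-CSF, had 3771 with R848 and 3628 with R848+API09, against 9.78 in media (difference 7.17, SE 0.12). Socs3, which blocks STAT3 signalling downstream of cytokine receptors, had 7636 and 7201 on the stimulated arrays, against 58.8 in media (6.63, SE 0.10). Il10, the main anti-inflammatory cytokine of macrophages, had 931 and 900 on the stimulated arrays and 12.3 in media (5.04, SE 0.09). The growth factor, the feedback inhibitor and the anti-inflammatory cytokine rose beside the inflammatory ones.

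Chemokines, prostaglandin synthesis and acute phase proteins were also among the 14 largest rises. The neutrophil chemokine Cxcl2 had 6799 with R848 and 6092 with R848+API09, against 77.4 in media (6.11, SE 0.15). The T cell chemokine Ccl5 had 5454 and 6037 on the stimulated arrays, against 80.2 in media (5.90, SE 0.10). Ptgs2, the inducible cyclooxygenase COX-2, had 6539 and 7020 on the stimulated arrays, against 108 in media (5.77, SE 0.13). In each the stimulated arrays were far above the 1 media array. Saa3, an acute phase protein made by macrophages, had 5765 and 6052 on the stimulated arrays and 101 in media (5.66). Nfkbiz, a nuclear IkB protein that is needed for a set of secondary NF-kB targets, differed by 5.44, and Tnfrsf1b, the type 2 TNF receptor, by 5.22. Marcks, an actin-linked substrate of protein kinase C, had 1147 and 1140 on the stimulated arrays and 5.70 in media (5.74), or 2.84 for the mean over its probe sets. Serpinb2, an inhibitor of urokinase, had 1022 and 1178 on the stimulated arrays and 7.20 in media (5.58). Cd40, the receptor for T cell help, differed by 4.70 and completed the 14. In 5 of the 14 genes (Csf3, Il1a, Marcks, Serpinb2 and Il10) the media array was below the filter level of 18.1, so that the added 16 makes their differences smaller than the ratio of intensities. This held for 76 of the 1391 genes called higher.

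**Figure D2:**
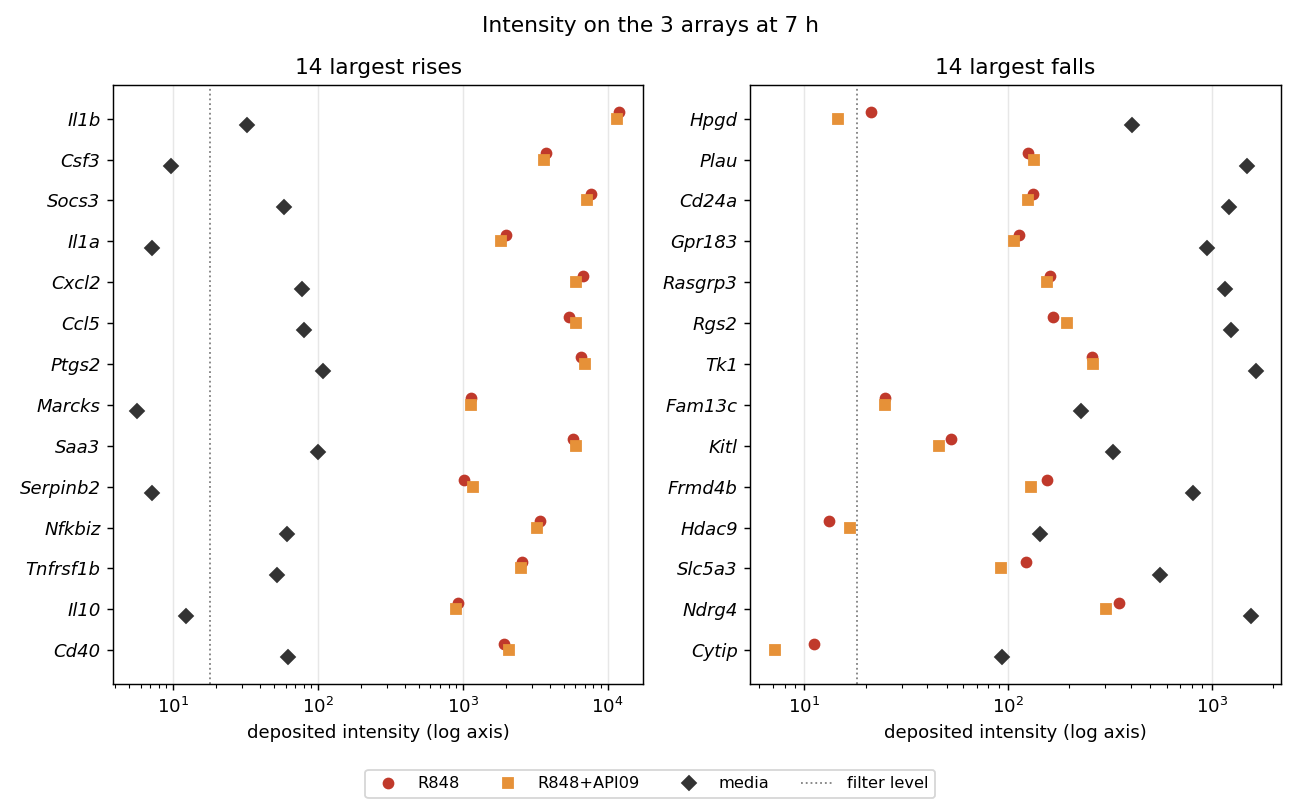
Deposited intensity (horizontal, log axis) of the 14 largest rises (left) and the 14 largest falls (right) on the 3 arrays at 7 h, with red circles for R848, orange squares for R848+API09, black diamonds for media and a dotted line at the filter level of 18.1. The stimulated arrays sit close to each other and on 1 side of media in each of the 28 genes.

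Hpgd, the enzyme that inactivates prostaglandins, fell most. It had 21.2 with R848 and 14.7 with R848+API09, against 405 in media, a difference of -3.64 (95% interval -4.04 to -3.24, adjusted p = 8.9e-08), or -2.18 for the mean over its probe sets. Plau, the urokinase that Serpinb2 inhibits, had 125 and 134 on the stimulated arrays and 1495 in media (-3.38, SE 0.15). An inhibitor of urokinase was thus among the 14 largest rises and urokinase among the 14 largest falls, and the same held for Ptgs2 and Hpgd, which make and break down prostaglandins. Cd24a, a glycosylated surface protein, had 133 and 125 on the stimulated arrays, against 1219 in media (-3.09). Gpr183, a receptor for oxysterols that guides immune cell migration, had 114 and 107 on the stimulated arrays, against 945 in media (-2.92). Tk1, the S phase thymidine kinase, had 259 and 262 on the stimulated arrays, against 1656 in media (-2.60). These genes were well above the filter level in media.

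Regulators of small G proteins and of G protein signalling were among the other large falls. Rasgrp3, an activator of Ras and Rap, had 161 and 155 on the stimulated arrays and 1162 in media (-2.76). Rgs2, which shortens the signal of G protein coupled receptors, had 165 and 196 on the stimulated arrays and 1249 in media (-2.69). Kitl, the ligand of the Kit receptor, fell by 2.40, Hdac9, a class IIa histone deacetylase, by 2.37, and Slc5a3, a myo-inositol transporter, by 2.22. Fam13c (-2.58), Frmd4b (-2.39) and Ndrg4 (-2.20) complete the group with Cytip (-2.12), a partner of cytohesin that affects cell adhesion. The sizes moved with the processing. Over the 15 alternatives of the closing section Cytip lay between -3.25 and -1.29, Hdac9 between -3.19 and -1.55 and Kitl between -2.72 and -1.44. Both stimulated arrays were below the filter level in Hdac9 (13.2 with R848 and 16.7 with R848+API09, against 144 in media) and in Cytip (11.1 and 7.14, against 93.1 in media). This held for 43 of the 2263 genes called lower.

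Of 26 cytokine genes tested, 20 were called higher and 1 lower at 7 h, and their median difference was 1.30, against -0.04 over all genes. Tnf, the early inflammatory cytokine, had 3692 with R848 and 3529 with R848+API09, against 309 in media (3.48, SE 0.11). Il6, which drives the acute phase response, had 247 and 291 on the stimulated arrays and 6.49 in media (3.66, SE 0.10). Il1rn, the natural antagonist of interleukin 1, had 9338 and 9332 on the stimulated arrays and 593 in media (3.94). The agonists and the antagonist of the interleukin 1 receptor were thus all higher. Members near the filter level differed less. Il12b, the p40 chain of interleukins 12 and 23, had 22.9 with R848 and 32.4 with R848+API09, against 10.9 in media (0.69, 95% interval 0.43 to 0.96). Ifnb1, interferon beta, had 20.7 and 30.6 on the stimulated arrays and 15.1 in media (0.41, adjusted p = 0.031). The call of Ifnb1 was lost with R848 alone, where the difference was 0.24, and without either media array at 0 h. Tnfsf13b, the B cell survival factor BAFF, was the 1 cytokine called lower (-0.70).

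Among the chemokines 13 of 19 were called higher and 1 lower, with a median of 0.94. Ccl2, which attracts monocytes, had 4007 and 4121 on the stimulated arrays and 252 in media (3.93). Ccl4 had 9222 and 9709 on the stimulated arrays and 731 in media (3.67). Ccl22, a ligand of Ccr4, differed by 3.00, from a media value of 17.5 below the filter level. Cxcl10, an interferon-induced chemokine, had 661 and 768 on the stimulated arrays, against 433 in media, a difference of 0.70. Against media at 0 h its difference was 1.22. Cxcl14 was called lower (355 and 391 on the stimulated arrays, against 604 in media), a call that was lost with R848+API09 alone.

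Of 33 receptors for cytokines and chemokines 14 were called higher (42.4%) and 8 lower (24.2%), beside 11.3% and 18.5% of all genes. Ccr1, the receptor of Ccl5 and other chemokines, had 1465 with R848 and 1432 with R848+API09, against 51.6 in media (4.44, SE 0.20). Il4ra, the interleukin 4 receptor chain, had 138 and 123 on the stimulated arrays and 29.8 in media (1.68), and Csf2rb, the shared beta chain of the GM-CSF receptor, differed by 1.60. Csf1r, the receptor for the macrophage growth factor M-CSF, was lower, with 4930 and 4221 on the stimulated arrays, against 9453 in media (-1.05, 95% interval -1.31 to -0.79). Tgfbr1, a TGF-beta receptor chain, had 146 and 139 on the stimulated arrays and 488 in media (-1.67). Tnfrsf11a, the RANK receptor of osteoclast precursors, differed by -1.43. Among these named members the receptors of TNF, interleukin 4 and GM-CSF were higher, and those of M-CSF, TGF-beta and RANK ligand lower.

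In the Toll-like receptor pathway 15 of 31 genes were called higher and 3 lower. The receptor for R848, Tlr7, had 410 with R848 and 386 with R848+API09, against 511 in media. Its difference of -0.35 just missed the threshold (95% interval -0.62 to -0.08, adjusted p = 0.052), and it passed in 8 of the 15 alternatives, with -0.58 against media at 0 h. Tlr13, an endosomal receptor of bacterial ribosomal RNA, was lower at 80.1 and 76.3 on the stimulated arrays, against 133 in media (-0.66), with a difference of -1.25 against media at 0 h. Tab1, a partner of the kinase TAK1, differed by -0.53, but by -0.05 against media at 0 h, where it was not called (adjusted p = 0.70). The adaptor Myd88 was slightly higher (1198 and 1157 on the stimulated arrays, against 864 in media, 0.44), a call lost with R848+API09 alone. Larger rises were in kinases and in a brake of the pathway. Map3k8, which links the pathway to ERK, had 271 and 261 on the stimulated arrays and 41.9 in media (2.28). Ikbke, an IKK-related kinase of the interferon arm, had 517 and 542 on the stimulated arrays and 115 in media (2.06). Irak3, which lacks kinase activity and dampens the signal, had 193 and 181 on the stimulated arrays and 52.5 in media (1.57).

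Of 19 NF-kB subunits and inhibitors, 12 were called higher and 2 lower, with a median of 1.01. Nfkbiz led, followed by Bcl3, another nuclear IkB protein, which had 917 and 913 on the stimulated arrays and 64.6 in media (3.53). Zc3h12a, an RNase that degrades cytokine mRNAs, differed by 3.10, Tnip1, a partner of the ubiquitin-editing protein A20, by 2.17, and the subunit Rel by 2.04. Nfkbia, the IkB alpha inhibitor, had 9172 and 9117 on the stimulated arrays and 3899 in media (1.23). The inhibitors and the subunit Rel rose together. Birc2 (-0.33) and Cyld (-0.46), which regulate ubiquitin chains in the pathway, were called lower. The call of Birc2 was lost with either stimulated array alone, that of Cyld with R848 alone, and that of Birc2 also without either media array at 0 h. RefSeq promoter windows (GRCm38.p6, 250 bases before and 50 after the gene start) were matched for 17 of the 19 genes. The kappa B motif, searched by its 10-base consensus on both strands, was found in 8 of the 17 windows (47.1%), against 10.1% of the windows of 9933 genes tested. Of the genes called higher 12.9% held it, and of the genes called lower 9.71%. The 8 holders included Cyld, called lower, and Nfkbie, which was not called, but not Nfkbiz or Zc3h12a. The motif marks genes that NF-kB is known to bind, and it is shown in capitals around the match nearest the gene start. These stretches are from the called holders with the largest rises other than Bcl3. Bcl3 and Il6 are shown with 250 bases.
Tnip1 (chr11:54962977-54963006, minus strand): ccatcatgGGGGAATTCCCCtcctgcctca
Rel (chr11:23771041-23771070, minus strand): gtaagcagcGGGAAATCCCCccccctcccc
Tnfaip3 (chr10:19015403-19015432, minus strand): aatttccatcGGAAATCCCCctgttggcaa
Nfkbia (chr12:55492657-55492686, minus strand): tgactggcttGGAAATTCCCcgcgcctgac
Bcl3, 250 bases (chr7:19822726-19822975, minus strand): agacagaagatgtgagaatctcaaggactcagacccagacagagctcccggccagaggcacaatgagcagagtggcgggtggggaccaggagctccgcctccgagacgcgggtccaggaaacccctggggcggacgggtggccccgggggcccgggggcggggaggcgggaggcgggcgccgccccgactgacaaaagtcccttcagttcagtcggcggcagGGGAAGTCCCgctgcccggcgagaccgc
Il6, 250 bases before the start (chr5:30012864-30013113, plus strand): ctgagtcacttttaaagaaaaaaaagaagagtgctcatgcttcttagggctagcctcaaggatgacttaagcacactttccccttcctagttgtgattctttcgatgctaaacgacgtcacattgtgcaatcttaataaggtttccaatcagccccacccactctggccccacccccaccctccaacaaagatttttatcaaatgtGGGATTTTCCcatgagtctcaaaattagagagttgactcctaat
Overlapping matches of both strands are joined in the capitals. A match of letters is a description of the sequence, not a measured site.

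Feedback on cytokine and MAP kinase signals was also raised. Of 31 genes 13 were called higher (41.9%) and 4 lower (12.9%), beside 11.3% and 18.5% of all genes. Zfp36, which destabilises cytokine mRNAs, had 3758 and 3750 on the stimulated arrays and 264 in media (3.75). The MAP kinase phosphatases Dusp1 (1809 and 1994 on the stimulated arrays, against 139 in media, 3.63), Dusp5 (3.28) and Dusp2 (3.18) rose with it. Rgs1 was called lower (439.5 and 434.2 on the stimulated arrays, against 890.7 in media), as was Rgs2 above, both inhibitors of G protein signals. In the early transcription factors 17 of 28 were higher and 3 lower. Cebpd, a factor of the acute phase response, had 4032 and 3539 on the stimulated arrays and 300 in media (3.59). Its difference lay between 2.16 and 3.72 over the 15 alternatives. Ier3 (2.81), Myc (2.27), Fosl1 (2.12) and Atf3 (1.72) followed. Egr2 was lower at 7 h (116 and 109 on the stimulated arrays, against 236 in media, -0.97), although its difference at 1 h was 2.72. Klf10 fell by 1.13.

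Interferon-stimulated genes were called higher in 46 of 49 cases and lower in 0, with a median of 1.12. The 3 that were not called were Irf9 (0.25), Trim21 (0.21) and Trim25 (0.24), named here because they were the exceptions. Gbp3, a guanylate-binding GTPase, had 485 with R848 and 437 with R848+API09, against 26.7 in media (3.48, 95% interval 3.21 to 3.74). Ifit3 and Ifit1, which bind foreign RNA, differed by 3.48 and 3.35. Ifit1 had 1599 and 1612 on the stimulated arrays, against 143 in media. The stimulated arrays lay apart from media in each of these genes. The DNA sensors Ifi204 (594 and 480 on the stimulated arrays, against 54.5 in media) and Zbp1 (772 and 934 on the stimulated arrays, against 103 in media) differed by 2.96 and 2.87. Media itself was not flat in this group. Ifit1 was higher in media at 7 h than in media at 0 h by 1.17 (adjusted p = 0.024), while Ifit3, which was not called there, differed by 0.86. With media at 0 h as the reference, all 49 genes were called higher. Among regulators of the interferon response, 5 of 16 were higher (31.25%) and 2 lower (12.5%), beside 11.3% and 18.5% of all genes. Stat3, the factor downstream of interleukins 6 and 10, had 1102 and 1198 on the stimulated arrays and 296 in media (1.90), with Stat5a (1.16) and Jak2 (1.08) next.

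The interferon-stimulated response element, written as GAAA, any 2 bases and GAAA again, and searched on both strands, is known to bind the STAT and IRF complexes that act on these genes. Promoter windows were matched for 38 of the 49 genes, under 80%, so a share over the list is void as a check, and 18 of the 38 windows held the element. Of all windows of genes tested, 2.91% held it, of the genes called higher 6.21% (1127 windows, 81.0% of these genes) and of the genes called lower 2.79% (1865 windows, 82.4%). The promoter of Gbp3, the member with the largest difference that holds it, is shown with 2 overlapping matches in capitals, and 30-base stretches of the next members by size of rise follow.
Gbp3, 250 bases before the start (chr3:142559794-142560043, plus strand): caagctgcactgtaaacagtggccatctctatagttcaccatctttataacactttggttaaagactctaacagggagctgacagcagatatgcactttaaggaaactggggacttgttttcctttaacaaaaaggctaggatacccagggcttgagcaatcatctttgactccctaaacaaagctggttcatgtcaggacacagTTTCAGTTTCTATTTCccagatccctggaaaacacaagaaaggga
Ifit3 (chr19:34583397-34583426, plus strand): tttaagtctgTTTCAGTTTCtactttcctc
Ifit1 (chr19:34640794-34640823, plus strand): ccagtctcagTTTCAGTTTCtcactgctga
Slfn5 (chr11:82951937-82951966, plus strand): ccttcaaagtGAAAAAGAAAaaaaaaaaag
Ifih1 (chr2:62646206-62646235, minus strand): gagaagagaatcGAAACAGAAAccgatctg
Rsad2 (chr12:26456553-26456582, minus strand): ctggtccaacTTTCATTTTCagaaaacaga
Gbp2 (chr3:142620594-142620623, plus strand): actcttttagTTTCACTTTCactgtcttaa
Trim30a (chr7:104465210-104465239, minus strand): agttctttagTTTCTTTTTCtcagttcctg
The differences of these genes at 7 h ran from 3.48 in Ifit3, over 2.48 in Slfn5 and 1.94 in the RNA sensor Ifih1, to 1.48 in Trim30a. Most of the stretches hold the element in the reverse orientation, as TTTC repeats.

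Genes for contact with T cells and other cells rose in 16 of 26 cases and fell in 2. Beside Cd40 these included Cd83, a marker of activated antigen-presenting cells, with 1801 and 1824 on the stimulated arrays and 120 in media (3.74), and Cd274, the inhibitory ligand PD-L1 (2.32). Cd86, a ligand of CD28, had 83.5 and 74.7 on the stimulated arrays and 30.6 in media (1.03). Itga4, the alpha 4 integrin chain, was lower, with 635 and 487 on the stimulated arrays, against 2017 in media (-1.83). In MHC class I 4 of 16 genes were higher and 1 lower, led by the class I activator Nlrc5 (0.89) and the peptide transporter Tap1 (0.75). Without the R848+API09 array at 22 h, 3 class I genes were lower. In MHC class II 0 of 6 were higher and 1 lower (16.7%, beside 18.5% of all genes). The lower gene was H2-DMa (93.7 and 108 on the stimulated arrays, against 164 in media, -0.63). H2-Aa, at 32.5 and 31.2 on the stimulated arrays, against 42.8 in media at 7 h, was not called. The calls of lower genes in both MHC lists were lost with R848+API09 alone, and that in class I with R848 alone as well. Against media at 0 h, however, 4 class II genes were lower, H2-Aa among them (-0.48). With media at 0, 1, 3 and 7 h as 1 group, 2 were lower.

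Macrophage surface receptors rose in 18 of 36 cases and fell in 4. Fpr2, a receptor for formyl peptides and for acute phase proteins, had 428 and 476 on the stimulated arrays, against 21.5 in media (3.64). The complement receptors C3ar1 (3.32) and Itgam (2.42) and the Fc receptors Fcgr4 (2.52) and Fcgr2b (2.49) rose with it. Trem2, a lipid receptor of macrophages and osteoclasts, was lower (982 and 1008 on the stimulated arrays, against 2659 in media, -1.40). Marco, a scavenger receptor, stayed at the filter level on all 3 arrays, with 17.7 and 21.4 stimulated and 18.9 in media (0.03, adjusted p = 0.90). Among receptors for nucleotides and lipids 8 of 20 were higher (40%) and 4 lower (20%), beside 11.3% and 18.5% of all genes. Hcar2, the nicotinic acid receptor, had 1179 and 1228 on the stimulated arrays and 34.5 in media (4.59), and Gpr34 was lower (-1.71). With R848 alone the rises in this list numbered 5.

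Transcription factors of macrophages rose in 12 of 32 cases (37.5%, beside 11.3% of all genes) and fell in 6 (18.8%, beside 18.5%). Maf, which is known to drive Il10, had 847.8 with R848 and 1055 with R848+API09, against 29.8 in media (4.39), or 1.91 for the mean over its probe sets. Id1, an inhibitor of helix-loop-helix factors, differed by 2.41 and Ets2 by 1.54. Mef2c was lower, at 279 and 330 on the stimulated arrays, against 1029 in media (-1.71), as was Fli1 (-0.92). The share of falls in the list was thus near that over all genes. Chromatin enzymes were called higher in 4 of 39 cases and lower in 10, that is 10.3% and 25.6%, beside 11.3% and 18.5% of all genes. Tet2, which oxidises methylcytosine, rose by 2.24, and Kdm6b, an H3K27 demethylase, by 1.22, while Hdac5 (-1.26) and Smarca2 (-0.99) were lower with Hdac9.

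**Figure D3:**
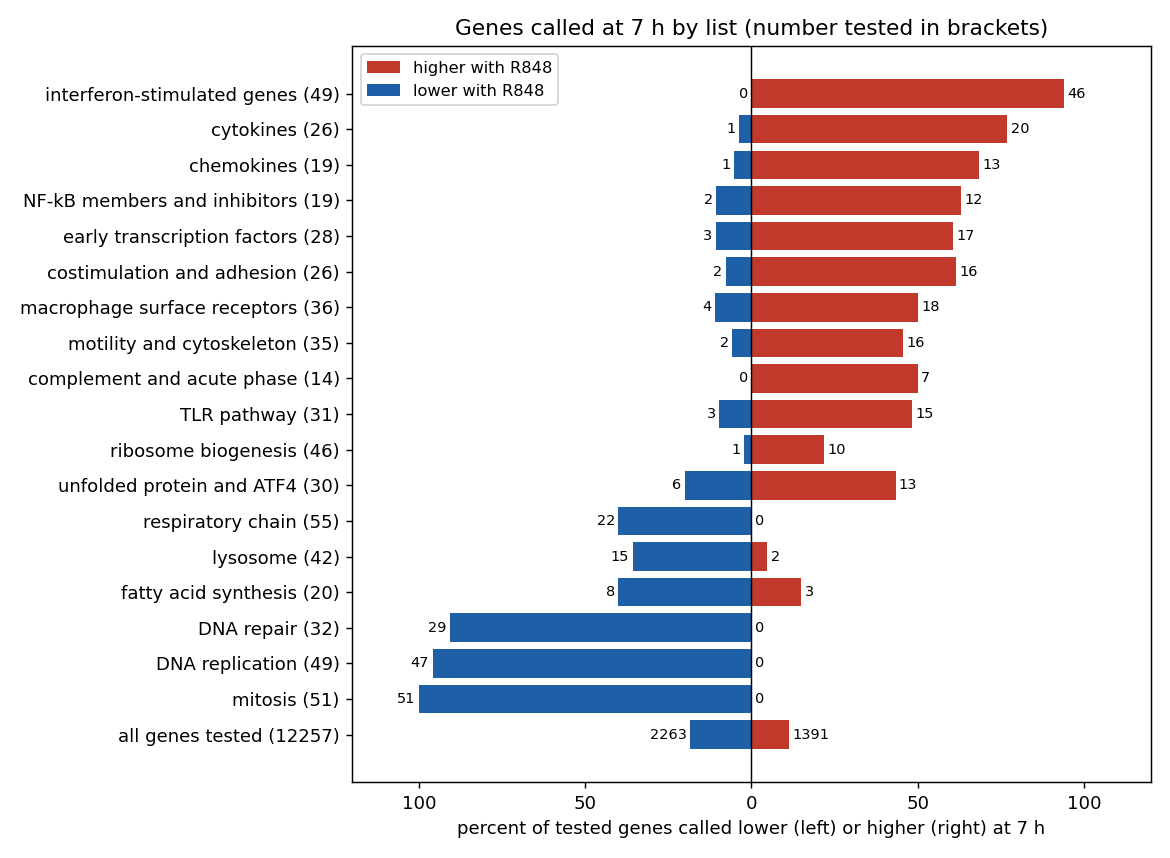
Percent of tested genes called lower (blue, to the left) or higher (red, to the right) at 7 h for 18 gene lists and for all 12257 genes, with the number tested in brackets and the numbers called at the bar ends. The interferon-stimulated genes (46 of 49 higher) and the mitosis genes (51 of 51 lower) lie at opposite ends, while all genes together have 11.3% higher and 18.5% lower.

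By list, the falls were most uniform in genes of the cell cycle. All 51 mitosis genes tested were called lower (18.5% of all genes were), with a median of -0.97. DNA replication genes were lower in 47 of 49 cases and higher in 0, with a median of -1.07, and DNA repair genes in 29 of 32 cases. The 2 replication genes not called, named here because they were the exceptions, were the origin recognition genes Orc1 (0.21) and Orc2 (-0.23). Mcm7, a subunit of the replicative helicase, had 1353 with R848 and 1339 with R848+API09, against 3820 in media (-1.49, 95% interval -1.68 to -1.31). Mcm6 had 943 and 953 on the stimulated arrays, against 2848 in media (-1.57), and Gins1, of the same helicase complex, differed by -1.57. Pole2 and Chaf1b, of DNA polymerase epsilon and of chromatin assembly, fell by 1.53 and 1.52. Over the 15 alternatives of the closing section Chaf1b lay between -1.62 and -0.77. The helicase, the polymerase and the thymidine kinase thus fell together. In these bulk RNA samples fewer cycling cells and less RNA per cycling cell cannot be told apart.

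Among the mitosis genes Fbxo5, an inhibitor of the anaphase-promoting complex, fell most (214 and 229 on the stimulated arrays, against 669 in media, -1.53). Nusap1 of the spindle (-1.44), the checkpoint protein Mad2l1 (-1.40), the kinase Aurkb (-1.36) and Anln of the cleavage furrow (-1.35) came next. Mad2l1 had 872 and 850 on the stimulated arrays, against 2291 in media. In DNA repair the falls were led by Rad51ap1 (-1.43), Rad54l (-1.40) and Brca1 (-1.39), all of homologous recombination, and by Ung (-1.32), which removes uracil. Brca1 had 103 and 95.3 on the stimulated arrays, against 285 in media. The regulators of the cycle were less uniform. Of 33 cyclins, kinases, inhibitors and E2F factors 20 were lower and 6 higher. E2f8 (-1.63), the inhibitor Cdkn2c (-1.52) and the retinoblastoma relative Rbl2 (-1.70) fell, while the stress-response genes Gadd45b (1046 and 1284 on the stimulated arrays, against 132 in media, 2.99) and Gadd45a (2.03) rose.

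Known cell cycle promoter elements were searched in the same windows on both strands. The E2F motif, written TTTCCCGC or TTTGGCGC, was found in 12 of 41 windows of replication genes (29.3%, with windows for 83.7% of the list), against 3.11% of all genes tested. The cell cycle genes homology region, written TTTGAA, is known from genes of mitosis. It was held by 31 of 40 windows of mitosis genes, which are 78.4% of the list and so under the 80% needed for a share over it, and by 11.9% of the windows of all genes tested. Of the genes called lower 5.95% held the E2F motif and 15.4% the homology region, against 1.77% and 11.5% of the genes called higher. The stretches around the matches nearest the start are shown for the members with the largest falls that hold them, first for replication with the E2F motif in capitals.
Mcm6 (chr1:128359734-128359763, minus strand): gattggacgggTTTGGCGCgaagtagctca
Pole2 (chr12:69228162-69228191, minus strand): cgtcggcggtgGCGCCAAAtcgcgaacatg
Mcm7 (chr5:138172030-138172059, minus strand): aatttcgaaccGCGGGAAAcagggtgtcca
The mitosis genes follow, with TTTGAA or its reverse complement in capitals.
Fbxo5, 250 bases (chr10:5805436-5805685, minus strand): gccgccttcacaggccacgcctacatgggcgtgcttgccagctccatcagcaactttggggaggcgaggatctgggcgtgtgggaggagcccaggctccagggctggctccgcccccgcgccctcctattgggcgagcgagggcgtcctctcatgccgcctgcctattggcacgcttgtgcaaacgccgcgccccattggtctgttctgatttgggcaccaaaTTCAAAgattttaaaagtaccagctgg
Anln (chr9:22389168-22389197, minus strand): ggggcgctgaaaTTCAAAtTTTGAAcggcc
Spc25 (chr2:69206172-69206201, minus strand): ggcggtggagagTTTGAAattgaaagactg
Top2a (chr11:99024195-99024224, minus strand): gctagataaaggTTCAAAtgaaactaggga
Ncapd2 (chr6:125191692-125191721, minus strand): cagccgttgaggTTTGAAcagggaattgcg
Kif11 (chr19:37376351-37376380, plus strand): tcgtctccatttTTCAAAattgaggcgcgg
Spc25 of the kinetochore, Top2a of DNA topology, Ncapd2 of condensin and Kif11 of the spindle differed by -1.26, -1.26, -1.25 and -1.24 at 7 h.

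Genes of metabolism were split. Over all genes 11.3% were higher and 18.5% lower. Acod1, which makes itaconate from a citric acid cycle intermediate, had 8997 with R848 and 8837 with R848+API09, against 352 in media (4.60, 95% interval 4.33 to 4.87). In the same list of the citric acid cycle, 6 of 21 genes were lower (28.6%) and 2 higher (9.52%). This share of rises was near that over all genes. Idh1, a cytosolic isocitrate dehydrogenase, had 917 and 861 on the stimulated arrays and 2231 in media (-1.31). The falls in this list numbered 3 with R848 alone and 12 without the R848+API09 array at 22 h. Respiratory chain genes were lower in 22 of 55 cases (40%) and higher in 0, with a median of -0.24, led by Ndufs7 (-0.58) and Sdhd (-0.50). This count was 13 with R848 alone, 9 with R848+API09 alone, 14 against media at 0 h and 35 without the R848+API09 array at 22 h, so it moved with the arrays in the fit. Glycolysis and hypoxia genes were higher in 7 of 26 cases and lower in 2, with Pfkfb3, an activator of glycolysis, at 569 and 601 on the stimulated arrays and 67.2 in media (2.85), the glucose transporter Slc2a1 (1.37) and the hexokinase Hk2 (1.20). The falls in that list numbered 4 once the R848+API09 array at 22 h was left out and 10 against media at 0 h. Nos2, the inducible nitric oxide synthase, had 57.3 with R848 and 79.3 with R848+API09, against 20.7 in media (1.19, 95% interval 0.76 to 1.61). Gch1, which makes a cofactor of that enzyme, had 1637 and 1815 on the stimulated arrays and 457 in media (1.88), and Odc1, of polyamine synthesis, differed by 1.39.

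In lipid metabolism the eicosanoid genes were higher in 5 of 18 cases and lower in 7. The prostaglandin E synthase Ptges (1.19) rose beside Ptgs2, while Alox5ap, which is needed to make leukotrienes, was lower (1332 and 1290 on the stimulated arrays, against 2722 in media, -1.05). Fatty acid synthesis genes were lower in 8 of 20 cases and higher in 3, with the desaturases Fads1 (501 and 506 on the stimulated arrays, against 1204 in media, -1.23) and Fads2 (-1.02) and the elongase Elovl6 (-1.03) among the falls and Agpat4 (1.04) among the rises. The falls in this list numbered 13 once the R848+API09 array at 22 h was left out. Of 21 cholesterol synthesis genes 3 were higher (14.3%) and 2 lower (9.52%), beside 11.3% and 18.5% of all genes. Fewer were called with either stimulated array alone. The rises in this list numbered 7 against media at 0 h and 8 with media at 0, 1, 3 and 7 h as 1 group. Among genes of lipid handling, Abca1, which exports cholesterol, had 606 and 491 on the stimulated arrays and 78.0 in media (2.58), and Cyp27a1 fell by 0.87.

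The lysosome list had 15 of 42 genes lower and 2 higher, with a median of -0.17. Without the R848+API09 array at 22 h, 5 lysosome genes were higher. Slc17a5, a sialic acid exporter, had 122 and 88.2 on the stimulated arrays and 211 in media (-0.92), and Manba fell by 0.83. Ctsc, the cathepsin that activates serine proteases, was higher (6144 and 5754 on the stimulated arrays, against 2325 in media, 1.35). With media at 0 h as the reference 25 lysosome genes were lower and 4 higher. The vacuolar ATPase list had 4 of 17 genes higher and 4 lower, with Atp6v0a1 (1.05) highest and Atp6v0d2 (128 and 147 on the stimulated arrays, against 291 in media) lowest, and the autophagy list 1 of 33 higher, the receptor Sqstm1 (1.17), and 4 lower. Over all genes 11.3% were higher and 18.5% lower. The vacuolar ATPase falls numbered 2 with R848 alone and 7 with trend and robust variances. Without the R848+API09 array at 22 h, 8 autophagy genes were lower and 3 higher.

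Complement and acute phase genes were higher in 7 of 14 cases and lower in 0. Lcn2, which binds bacterial iron carriers, had 586 with R848 and 633 with R848+API09, against 11.8 in media (4.49), and S100a8, a calcium- and zinc-binding alarmin, had 873 and 991 on the stimulated arrays and 40.3 in media (4.07). In the iron list 6 of 16 were higher (37.5%) and 2 lower (12.5%), beside 11.3% and 18.5% of all genes. The rises included the transporters Slc39a14 (1.89) and Slc11a1 (1.62) and the haem oxygenase Hmox1 (1.64). Redox genes were higher in 8 of 28 cases (28.6%) and lower in 9 (32.1%). Slc7a11, the cystine transporter, had 953 and 931 on the stimulated arrays and 109 in media (2.93). The metallothionein Mt2 had 8830 and 8939 on the stimulated arrays and 1416 in media (2.64). Of 30 genes of the unfolded protein and ATF4 responses 13 were higher (43.3%) and 6 lower (20%, near the share of all genes). Chac1 (1.65) and Sesn2 (1.40) were up and Edem1 (-0.69) down. Trib3, of the same list, was called higher (0.88), but it was higher in media at 0 h than at 7 h, and against media at 0 h its difference was -0.032. Heat shock genes were higher in 2 of 16 cases (12.5%, beside 11.3% of all genes) and lower in 1.

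Matrix, movement and survival genes completed the lists. Over all genes 11.3% were higher and 18.5% lower. The shares of falls in the matrix (19.0%), osteoclast (15.4%) and amino acid transporter (14.3%) lists were near that of all genes. Of 21 proteases and matrix genes 10 were higher and 4 lower, with Timp1, an inhibitor of metalloproteases, at 532 and 574 on the stimulated arrays and 21.6 in media (3.92), tenascin C (Tnc, 3.79) and Mmp9 (2.88). Cytoskeleton genes were higher in 16 of 35 cases and lower in 2, with Rnd1 (3.64) and Arhgef3 (2.12) next to Marcks, and the microtubule-destabilising Stmn1 lower (-1.01). The falls there numbered 5 once the R848+API09 array at 22 h was left out and 7 against media at 0 h. In cell death and inflammasome genes 11 of 30 were higher and 8 lower, with the death receptor Fas (692 and 696 on the stimulated arrays, against 47.7 in media, 3.48) and Casp4 (2.71), but also the survival genes Bcl2l1 (1.51) and Cflar (1.35), among the rises. Amino acid transporters were higher in 6 of 21 cases and lower in 3, with Slc15a3 (3.32) and Slc43a2 (-1.91) at the ends. Osteoclast genes were higher in 4 of 13 cases and lower in 2, or 4 once that array at 22 h was left out. Ribosome biogenesis genes were higher in 10 of 46 cases and lower in 1, with differences of at most 0.51 (Rrp9). That count was 6 with R848+API09 alone, 19 without the R848+API09 array at 22 h and 25 against media at 0 h.

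The response at 7 h was set against that at 3 h to find what was late and what had passed. The difference between the responses was called in 945 genes (7.71%), 465 of them higher (3.79%) and 480 lower (3.92%) at 7 h, and in 1926 genes without the R848+API09 array at 22 h. Lcn2 had 586 and 633 on the stimulated arrays at 7 h, against 11.8 in media, and 20.1 and 15.8 on the stimulated arrays at 3 h, against 14.9 in media (difference of the responses 4.36, SE 0.18). Ccr1 (4.23), S100a8 (4.03), Maf (3.66), Il33 (3.37) and Wfdc17 (3.11) showed the same order. The responses of these 6 genes at 3 h lay between 0.04 and 0.84, and those of Maf (0.73) and Wfdc17 (0.84) were called there. Lif, a cytokine of the interleukin 6 family, went the other way. It had 60.6 and 65.0 on the stimulated arrays at 7 h, against 12.9 in media, and 1107 and 960 on the stimulated arrays at 3 h, against 16.4 in media (-3.57). Pdgfb, a growth factor, was not called at 7 h (454 and 473 on the stimulated arrays, against 428 in media), while at 3 h it had 4334 and 4205 stimulated and 725 in media (-2.42). Plau (-2.84), Cd24a (-2.44), Rasgef1b (-1.95) and Fam107b (-1.92) also responded lower at 7 h.

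At 1 h 77 genes were called higher (0.628%) and 8 lower (0.0653%), and at 3 h 767 were higher (6.26%) and 1123 lower (9.16%). By list, the falls of the cell cycle were deeper at 7 h than at 3 h. Of the 49 replication genes 26 responded lower at 7 h than at 3 h and 2 higher, and of the 51 mitosis genes 22 lower and 0 higher. Without the R848+API09 array at 22 h, 32 replication genes responded lower and 3 higher, and 32 mitosis genes lower and 0 higher. The replication median was -1.07 at 7 h and -0.46 at 3 h, and the mitosis median -0.97 at 7 h and -0.39 at 3 h. The interferon-stimulated genes were already up at 3 h, with 41 of 49 called higher and a median of 1.00. Of these 49 genes 16 responded more at 7 h and 7 responded less. The median of the NF-kB list was 1.01 at 7 h and 1.57 at 3 h, with 6 of 19 genes responding less at 7 h and 3 more. Without that array 7 responded less and 3 more.

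**Figure D4:**
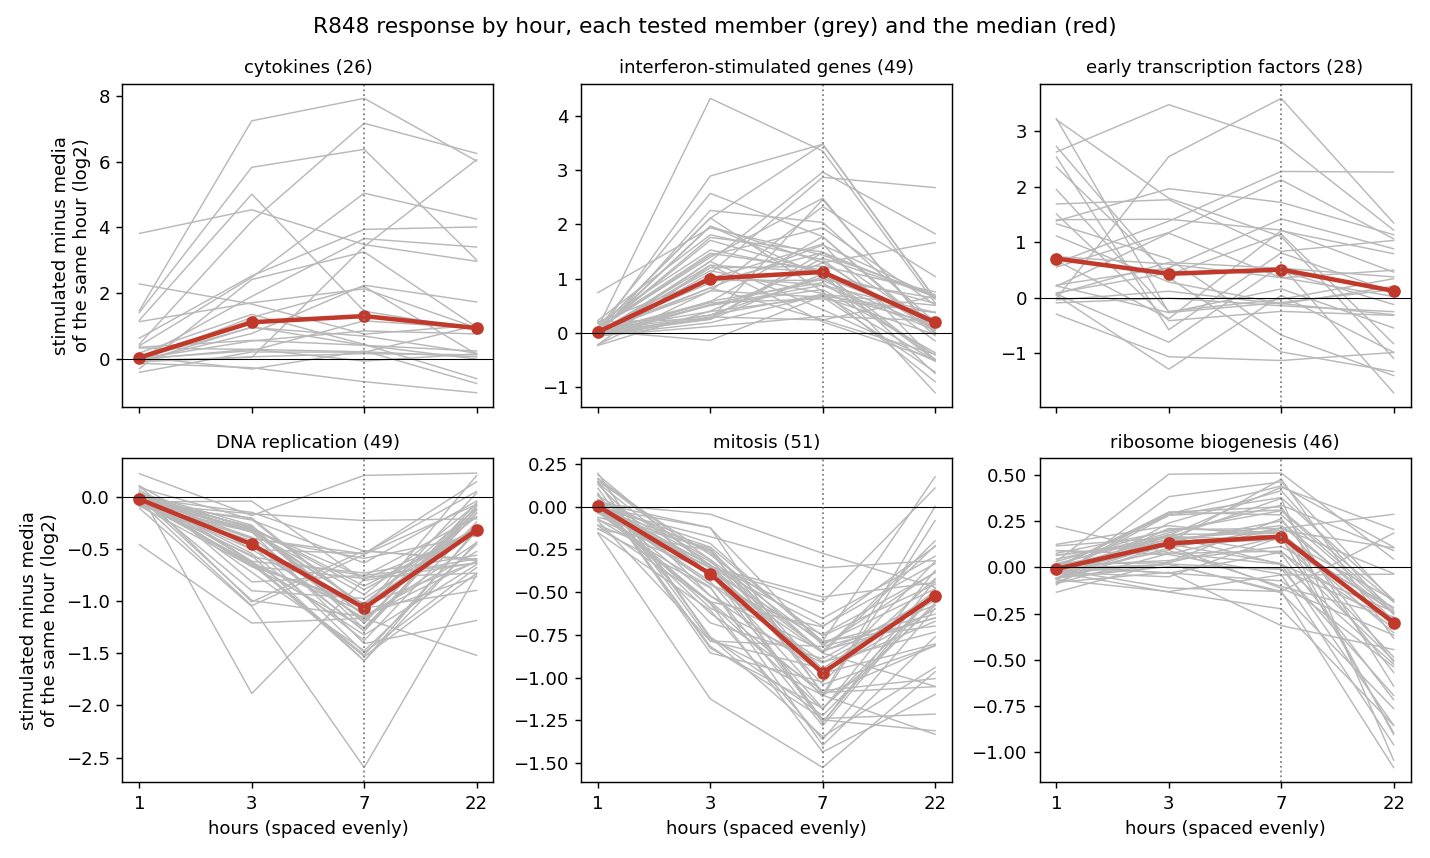
Stimulated minus media of the same hour (log2 units) at 1, 3, 7 and 22 h for the tested members of 6 lists (grey lines) and their median (red), with a dotted line at 7 h. The replication and mitosis medians are lowest at 7 h (-1.07 and -0.97), and the interferon-stimulated median of 1.12 at 7 h stands at 0.20 by 22 h.

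The response at 22 h was set against that at 7 h in the same way. It differed between 22 and 7 h in 3109 genes (25.4%), with 1264 responding higher at 22 h (10.3%) and 1845 lower (15.1%), and in 4197 (2166 higher and 2031 lower) without the R848+API09 array at 22 h. Of the 49 interferon-stimulated genes 38 responded less at 22 h and 0 more, or 38 and 1 without that array. Of the replication genes 31 responded higher at 22 h and of the mitosis genes 18, or 36 and 32 without the array, and 0 lower in either list, or 1 replication gene without it. At 22 h the interferon-stimulated median was 0.20, the replication median -0.32 and the mitosis median -0.52. Without the array these medians were 0.34, -0.21 and -0.46.

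Cd83 had 487 and 387 on the stimulated arrays at 22 h, against 614 in media, and 1801 and 1824 on the stimulated arrays at 7 h, against 120 in media (difference of the responses -4.23). Abca1 had 90.0 and 68.8 on the stimulated arrays at 22 h, against 141 in media, and 606 and 491 on the stimulated arrays at 7 h, against 78.0 in media (-3.31). In both genes the stimulated arrays were below media at 22 h and above it at 7 h, and media also differed between the hours. Il1a (-3.37), Ifi44l (-3.39), Adm (-3.26) and Ccr1 (-3.02) also responded less at 22 h. The largest gain was in Urah, an enzyme of urate breakdown, with 3403 and 3733 on the stimulated arrays at 22 h, against 19.4 in media, and 152 and 236 on the stimulated arrays at 7 h, against 17.99 in media (4.06). S100a8 (4.04), Lix1 (3.26), Lcn2 (3.25), Pdpn (3.21) and Gstt1 (2.82) followed. Of these, Gstt1 was not called at 7 h (0.19). Without the R848+API09 array at 22 h these 12 differences kept their signs and calls, from -4.07 in Cd83 to 3.997 in Urah.

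**Figure D5:**
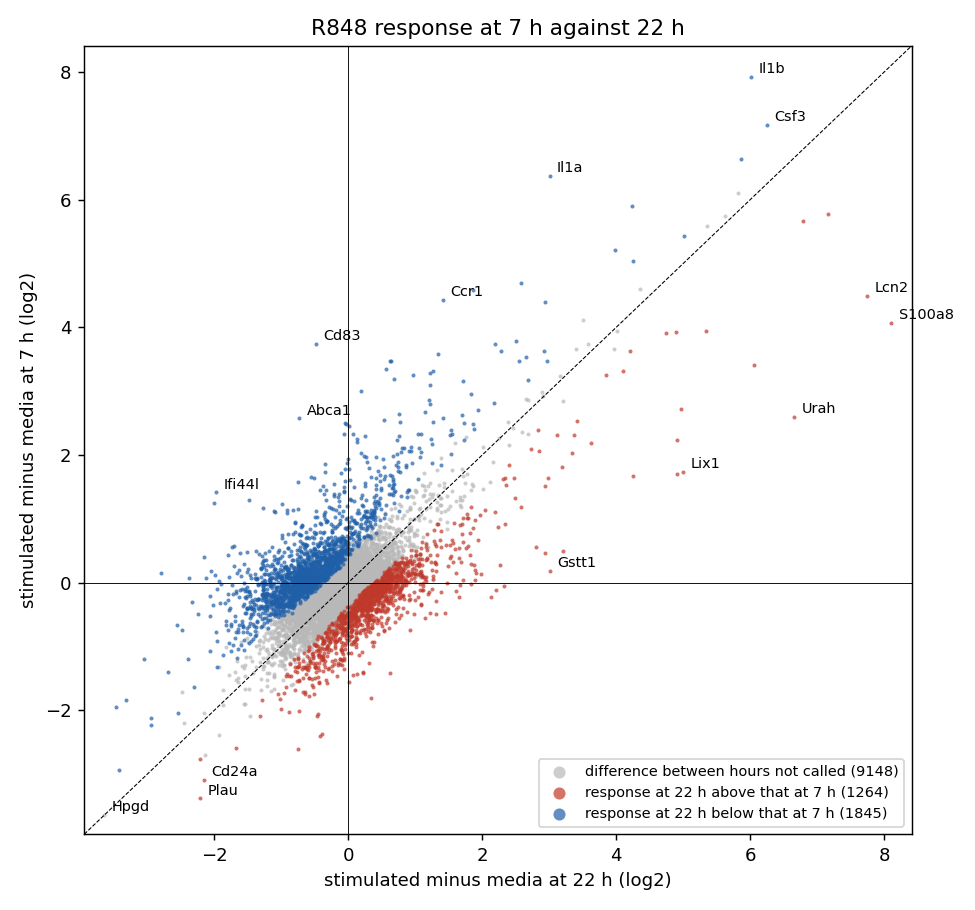
Stimulated minus media at 7 h (vertical) against the same at 22 h (horizontal), both in log2 units, for 12257 genes. Red points (1264) responded higher and blue points (1845) lower at 22 h than at 7 h, and the dashed line marks equal responses. Cd83, Abca1 and Ifi44l lie above 0 at 7 h and below 0 at 22 h.

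All differences at 7 h share 1 media array, so this array was set against media at 0 h. The difference was called in 42 genes (0.343%), 17 higher (0.139%) and 25 lower (0.204%) at 7 h. In the R848 response 27 of the 42 were also called, beside 29.8% of all genes. Both comparisons use the media array at 7 h, so this overlap is built in and is no check of that array. The count of 42 rests on few arrays, with 2 genes without either media array at 0 h and 201 without the R848+API09 array at 22 h. With media at 0 h in place of media at 7 h, 4575 genes were called for R848, 3289 of them among the 3654. With R848 alone 2866 genes were called and with R848+API09 alone 2887, of which 2805 and 2798 were among the 3654. For the genes with several kept probe sets, 2998 of the 3230 other probe sets of called genes had the same sign.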

How the data were processed

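Per the labels' protocols, NuGEN's Ovation V2 system amplified the RNA, which was read on mouse Affymetrix arrays of 1 colour. The deposited values are linear intensities, 1 per probe set and array, taken as already summarised and normalized because array medians differed little; the method is not given in the sources used here. The submitters' processing notes name limma without a version. Intensities had 16 added and were taken to log2. Probe sets that exceeded 18.1 (the median over the whole table) on 3 or more arrays were kept, and each gene was read from its probe set with the highest mean log2. Symbols came from the platform annotation, updated through Entrez identifiers.

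Differences were fitted in R 4.3.3 with limma 3.58.1 (lmFit, eBayes) on 18 arrays, with 1 mean per arm and hour, pooling R848 with R848+API09 at each hour, which left 5 residual degrees of freedom. The lone media arrays are assumed to vary like the pairs, and any effect of API09 enlarges the spread. P-values were adjusted by Benjamini-Hochberg over 12257 genes. On simulated data for the 7 h comparison with 12257 genes, 65.7% to 73.1% of changes of 0.5 and 98.5% to 100% of changes of 1 log2 unit were called. Far fewer genes were changed there than were called in the data, which makes the adjusted threshold stricter in the simulation.

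The members and lists were chosen with earlier results of these data known. Genes named are the 14 largest rises and falls, up to 5 members of each list by size and up to 2 against its majority, the 6 largest of each sign between hours, and fixed genes; members of lists outside this rule, exceptions and promoter stretches were chosen after their values were seen. Alternatives are given in the closing section. Genes of the lists that are not named as tested were not analysed here.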

Additional observations from a re-analysis of the deposited data

Results flagged for a closer look

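The response differed between 7 and 3 h in 945 genes and between 22 and 7 h in 3109 genes, by the test of the difference itself in limma. In 44 genes the responses at 7 and 3 h were both called with opposite signs and the difference was called too, 34 of them higher at 7 h. For 7 and 22 h this held for 299 genes, 187 of them higher at 7 h.

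Of the named genes with opposite signs at 7 and 3 h, Fam107b differed by -1.92, Nfil3 by 1.84, Dnajb9 by 1.45 and Birc2 by -0.71. Nfil3, a leucine zipper factor, had 154 and 180 on the stimulated arrays at 7 h, against 55.6 in media, and 29.4 and 30.3 on the stimulated arrays at 3 h, against 48.5 in media. Dnajb9, a chaperone partner of the endoplasmic reticulum, had 630 and 590 on the stimulated arrays at 7 h, against 323 in media, and 141 and 144 on the stimulated arrays at 3 h, against 219 in media.

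Between 22 and 7 h the largest such differences among named genes were in Cd83 (-4.23), Ifi44l (-3.39), Abca1 (-3.31), Adm (-3.26) and Gpr84 (-2.45). Ifi44l had 215 and 150 on the stimulated arrays at 22 h, against 751 in media, and 2229 and 2556 on the stimulated arrays at 7 h, against 883 in media. Gpr84, a receptor of medium-chain fatty acids, had a standard error of 0.39 at 7 h, and its call there (1.18, adjusted p = 0.040) was lost with either stimulated array alone and without either media array at 0 h.

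The control probe sets of 18S ribosomal RNA, which entered no comparison, averaged 10.14 on the log2 scale at 7 h with R848+API09, and 9.36 in media. They averaged 8.54 with R848 alone. The part of this control in the results was not tested.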

How the results depend on the processing

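Under 15 alternatives the count at 7 h lay between 2866 and 5072, and 28 of the 255 named genes called at 7 h lost the call in at least 1 alternative in which they were tested. Under every scaling the calls were 36.3% to 39.7% higher. The count was 4235 with quantile normalization, 3497 with median centring, 3621 with no filter, 3337 with the stricter filter, 3691 with the mean over probe sets, 3903 with trend and robust variances and 3386 with a pseudocount of 1. It was 5072 with media at 0, 1, 3 and 7 h as 1 group and 4753 with only the arrays at 0 and 7 h. A minimum difference of 1 log2 unit left 696 genes, 386 higher and 310 lower. Leaving out 1 media array at 0 h gave 3256 genes at 7 h (1252 higher, 2004 lower), 712 for 7 minus 3 h and 2569 for 22 minus 7 h. With 1 stimulated array at 7 h left out, the differences between hours were not fitted. The R848+API09 array at 22 h, left out, gave 5037 at 7 h (1902 higher, 3135 lower), 1926 for 7 minus 3 h, against 945, 4197 for 22 minus 7 h, against 3109, and 201 for media, against 42, and the median standard error at 7 h was 0.081, against 0.110. The media count was also 93 with quantile normalization, 25 with no filter, 98 with trend and robust variances and 4 with a pseudocount of 1. The causes were not tested. Against media at 0 h, Cd74 differed by -0.38 and Trib3 by -0.032, against 0.11 and 0.88 with media at 7 h.

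No paired analysis was possible because each arm and hour has 1 array, apart from the 2 media arrays at 0 h, so the groups compared share fewer than 2 replicate numbers. There is 1 media array at 7 h. Changes of 0.5 log2 units were called only in part on simulated data, where far fewer genes were changed than were called here.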
